A study of Mus musculus with 9 samples.

Results

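The 10 genes followed here belong to the muscle atrophy programme and were measured in newborn gastrocnemius RNA of *Shank3Δ11(-/-)* and *Shank3(+/+)* mice. They comprise the ubiquitin ligase genes Fbxo32, Trim63, Trim54, Trim55 and Fbxo30, the forkhead factor genes Foxo1, Foxo3 and Foxo4, and the stress and hormone response genes Gadd45a and Klf15. The members were taken by name, by matching the Ensembl identifier of each row to its mouse symbol, and the rule used no threshold on their levels. They are 10 of the 55471 genes in the count table, and all 10 had enough counts to be tested.

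Muscle mass reflects a balance of protein synthesis and protein breakdown. Forkhead box O (FoxO) factors are kept out of the nucleus by insulin and growth factor signalling through Akt, and when that signalling falls they enter the nucleus and switch on genes of protein breakdown. Among these genes, Fbxo32 encodes MAFbx (atrogin-1), an F-box protein that brings substrates to an SCF ubiquitin ligase, and Trim63 encodes MuRF1, a RING finger ligase of the sarcomere. Glucocorticoids act on the same genes through their receptor and through Klf15, a zinc finger factor that they induce.

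The gastrocnemius of 5 *Shank3Δ11(-/-)* mice (KO1 to KO5) and 4 *Shank3(+/+)* mice (WT1 to WT4) was taken at postnatal day 0 to 1, and 1 RNA-seq library was made per mouse. The labels give all mice a C57BL/6 background, and the methods name C57BL/6JRj for the matings that gave the *Shank3Δ11(-/-)* mice. The deletion, which is homozygous, is named for exon 11 of Shank3, which encodes a scaffold protein of synapses and of striated muscle. The study set aside KO2 and KO4 for too few total reads, so the genotypes were compared as KO1, KO3 and KO5 against the 4 *Shank3(+/+)* mice (the comparison of 7 mice) and again with all 9 mice. The mean of a *Shank3Δ11(-/-)* group below is over 3 mice unless stated otherwise.

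The counts summed to between 26444372 and 40471957 per mouse. In this table KO2 had 28211941 counts and KO4 had 40471957, the highest of the 9. Reads over the whole Shank3 gene gave 25.8 to 35.1 CPM (counts scaled to a common library size, the unit of all levels below) in the *Shank3Δ11(-/-)* mice and 32.5 to 38.5 CPM in the *Shank3(+/+)* mice, which does not check a deletion of single exons. Markers of muscle fibres summed to 68648 to 77483 CPM in every mouse, so the tissue matched its label. Y-linked genes summed to 190.1 to 248.0 CPM in KO1, KO2, KO4, WT1 and WT2 and to at most 0.423 CPM in the other 4 mice. In bulk tissue, fewer cells of a type and less RNA per cell cannot be told apart.

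The sequence upstream of the start is shown for Trim63, where the letters of a FoxO element and of a glucocorticoid receptor element lie side by side, and for Klf15, the member that varied most between mice. Both runs are RefSeq promoter sequence of build GRCm38.p6, plus strand, 5′ to 3′, ending 1 base before the annotated start: chr4:134314870-134315119 for Trim63 and chr6:90462326-90462575 for Klf15. Capitals mark TGTTCT followed directly by TGTTTAC, and further on TATAAA, in Trim63, and CACGTG in Klf15.
Trim63: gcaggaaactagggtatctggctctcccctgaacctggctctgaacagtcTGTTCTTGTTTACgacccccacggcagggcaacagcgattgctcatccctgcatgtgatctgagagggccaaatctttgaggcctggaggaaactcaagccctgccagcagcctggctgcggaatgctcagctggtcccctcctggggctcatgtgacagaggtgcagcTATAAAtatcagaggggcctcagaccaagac
Klf15: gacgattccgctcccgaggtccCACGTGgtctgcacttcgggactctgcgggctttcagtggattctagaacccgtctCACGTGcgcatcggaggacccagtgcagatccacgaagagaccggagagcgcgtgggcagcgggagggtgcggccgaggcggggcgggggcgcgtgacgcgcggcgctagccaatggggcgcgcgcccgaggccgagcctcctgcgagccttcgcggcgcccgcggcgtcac

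In Trim63 the run TGTTTAC, the reverse complement of the FoxO element GTAAACA, began 194 bases before the start. Directly before it lay TGTTCT, at -200, the reverse complement of AGAACA, the hexamer that a single glucocorticoid receptor subunit binds. A TATA box (TATAAA) began at -31. Searched on both strands in the window from 250 bases before to 50 bases after the start, GTAAACA occurred in 3.65% of 32817 mouse promoters, AGAACA in 19.0% and TATAAA in 13.6%. Of the members 7 had an entry in the promoter table. Fbxo32, Trim55 and Foxo4 had none. Of those with an entry, Trim63 was the one with GTAAACA, and Trim54 also held AGAACA, at -222. Klf15 held the E-box CACGTG at -228, -172 and -3, the last of which runs across the start and is not marked above. This E-box occurred in 7.15% of the promoters. These matches are a description of the letters in the window and not evidence of binding.

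Per kilobase of exon, a scale that allows genes to be compared, the genes of MuRF3 and MuRF2 had the highest means of the members. Trim54, which encodes MuRF3, had 59.2 ± 5.0 CPM per kilobase (SD, n = 9), and Trim55, which encodes MuRF2, had 27.9 ± 5.0. Foxo4 followed with 23.5 ± 2.8, then Gadd45a with 10.9 ± 2.8, Trim63 with 10.4 ± 2.3 and Foxo3 with 8.78 ± 1.7. The lowest levels belonged to Foxo1 (4.57 ± 0.59), Fbxo30 (3.76 ± 0.81), Klf15 (3.63 ± 2.3) and Fbxo32 (3.39 ± 0.84). MAFbx thus had the lowest mean on this scale, although Klf15 exceeded it in 4 of 9 mice only, and MuRF1 lay below MuRF2 and MuRF3. Between neighbours in this order, the ranges over the 9 mice did not overlap for Trim54 and Trim55, for Foxo4 and Gadd45a, and for Foxo3 and Foxo1. All other neighbours overlapped, and Gadd45a exceeded Trim63 in 4 of 9 mice only. An antisense gene covers 26.6% of the exon bases of Trim54, a gene on the other strand 19.1% of those of Gadd45a, and antisense genes 7.78% of Foxo1 and 2.67% of Fbxo32. The sources used here do not say whether strand was used in counting, so the reads of those genes and of their partners may be mixed.

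No member passed the threshold used between the genotypes, an unadjusted p below 0.05 together with a false discovery rate below 25%. In edgeR's quasi-likelihood test 0 of the 10 members were called in 7 mice and 0 in all 9, against 0.0% of all genes called in each. At an unadjusted p below 0.05, without the condition on the false discovery rate, 1 member (Foxo4, lower in *Shank3Δ11(-/-)*) passed in 7 mice, where 2.08% of 21809 genes did (1.16% higher and 0.917% lower). In 9 mice 0 members passed, where 2.03% of 21735 genes did (1.16% higher and 0.874% lower). DESeq2 and limma-voom likewise called 0 members. No member separated the genotypes completely in CPM, which 2.84% of genes did in 7 mice and 0.686% in 9. Of the 10 members 5 had a higher and 5 a lower fitted level in *Shank3Δ11(-/-)* in 7 mice. Their median log2 fold change was -0.005, where that of all genes tested was -0.008. The adjusted p of every member in edgeR, taken over all genes, was 1.00.

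**Figure D1:**
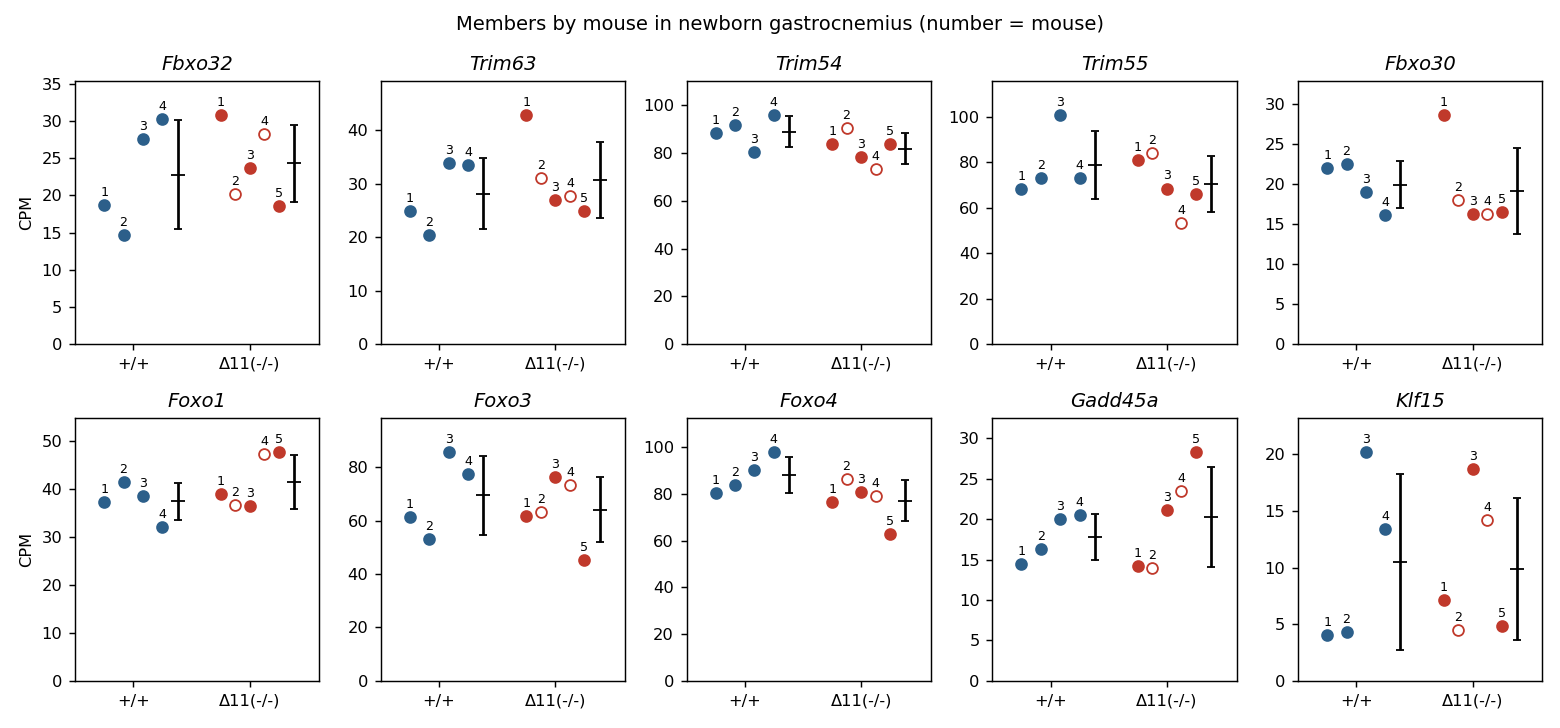
CPM of each member (y axes, starting at 0) by genotype (x axes), 1 point per mouse with its number; open points are KO2 and KO4, and the bars are the mean ± SD over 4 *Shank3(+/+)* and over all 5 *Shank3Δ11(-/-)* mice. The genotypes overlap in every panel, and Klf15 splits the mice of each genotype into a low and a high set.

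Fbxo32 was measured at 30.8, 20.3, 23.7, 28.2 and 18.6 CPM in KO1 to KO5 and at 18.8, 14.6, 27.5 and 30.3 CPM in WT1 to WT4. KO1 and WT4 were the highest mice and WT2 the lowest, so the genotypes overlapped over nearly the whole range. The means were 24.4 ± 6.1 CPM (SD, n = 3) and 22.8 ± 7.4 CPM (SD, n = 4). By edgeR the log2 fold change was 0.09 ± 0.26 (SE), and its 95% interval allowed between 0.715 and 1.57 times the *Shank3(+/+)* level. It was -0.12 without KO1 and -0.08 without WT2, so that single mice turned its direction. The gene lies on the minus strand at chr15:58175879-58214932 (GENCODE M21, build mm10).

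Trim63 (MuRF1) was measured at 42.8, 31.1, 26.9, 27.7 and 24.9 CPM in KO1 to KO5 and at 24.98, 20.4, 33.8 and 33.5 CPM in WT1 to WT4. KO1 stood above all other mice and WT2 below them, as for Fbxo32. Between genotypes Trim63 differed by a log2 fold change of 0.15 ± 0.22 (SE), with a 95% interval of 0.789 to 1.57 times the *Shank3(+/+)* level, and without KO1 it was -0.13. In KO1 the erythroid markers also summed to 5785 CPM, against 2195 CPM in the next mouse. Their part in the ligase levels was not tested.

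Trim54 (MuRF3), a microtubule and Z-disc associated ligase, was among the steadiest genes. It was measured at 83.5, 90.5, 78.1, 73.2 and 83.6 CPM in KO1 to KO5 and at 88.1, 91.5, 80.3 and 95.7 CPM in WT1 to WT4. The highest mouse was 1.31 times the lowest, and the SD of log2 CPM over 9 mice lay at the 11.8th percentile of all genes tested. Its log2 fold change was -0.13 ± 0.10 (SE), with an interval of 0.784 to 1.07 times the *Shank3(+/+)* level. The interval was thus the narrowest of the 5 ligases.

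Trim55 (MuRF2), a ligase that binds titin and signals between sarcomere and nucleus, was measured at 80.8, 83.9, 68.4, 53.1 and 65.8 CPM in KO1 to KO5 and at 68.0, 73.2, 100.6 and 73.2 CPM in WT1 to WT4. WT3 lay far above the other 3 *Shank3(+/+)* mice and KO4 was the lowest of all. For Trim55 the log2 fold change was -0.14 ± 0.15 (SE) with WT3, an interval of 0.723 to 1.13 times the *Shank3(+/+)* level, and 0.00 without it.

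Fbxo30 encodes MUSA1, an F-box ligase that BMP signalling holds down and that is induced on denervation. It was measured at 28.6, 18.0, 16.3, 16.3 and 16.6 CPM in KO1 to KO5 and at 22.1, 22.6, 19.0 and 16.2 CPM in WT1 to WT4. KO1 was the highest of the 9 mice, while the other 4 *Shank3Δ11(-/-)* mice lay at or below 18.0 CPM and 3 of the 4 *Shank3(+/+)* mice above it. For Fbxo30 the log2 fold change was 0.03 ± 0.20 (SE) in 7 mice, -0.06 in 9 mice and -0.28 in 7 mice without KO1 (edgeR, unadjusted p = 0.106, adjusted p = 1.00). It was -0.05 without WT4 as well, so its direction is not set.

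Foxo1, the FoxO factor that raises MuRF1 and MAFbx when overexpressed in muscle, was measured at 39.0, 36.7, 36.5, 47.2 and 47.7 CPM in KO1 to KO5 and at 37.4, 41.6, 38.6 and 32.1 CPM in WT1 to WT4. KO4 and KO5 were above all *Shank3(+/+)* mice, and KO1, KO2 and KO3 lay among them. Its log2 fold change was 0.13 ± 0.13 (SE), with an interval of 0.896 to 1.33 times the *Shank3(+/+)* level. It was 0.00 without KO5 and 0.06 without WT4.

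Foxo3, which drives both proteasomal and autophagic breakdown, was measured at 61.7, 63.2, 76.5, 73.4 and 45.4 CPM in KO1 to KO5 and at 61.3, 53.2, 85.7 and 77.6 CPM in WT1 to WT4. KO5 was the lowest mouse and WT3 the highest. KO3, KO4, WT3 and WT4 lay between 73.4 and 85.7 CPM, and all other mice at or below 63.2 CPM. In 7 mice the log2 fold change was -0.19 ± 0.20 (SE), with an interval of 0.644 to 1.19 times the *Shank3(+/+)* level. It was -0.02 without KO5, -0.06 without WT3 and -0.38 without KO3.

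Foxo4, an X-linked gene (chrX:101254528-101260873), was the member with the smallest p. It was measured at 76.4, 86.3, 80.9, 79.2 and 62.7 CPM in KO1 to KO5 and at 80.2, 83.7, 90.2 and 97.9 CPM in WT1 to WT4. KO1, KO4 and KO5 lay below every *Shank3(+/+)* mouse, KO3 just above WT1 and KO2 above WT1 and WT2. In 7 mice the means were 73.4 ± 9.5 CPM (SD, n = 3) and 88.0 ± 7.8 CPM (SD, n = 4). The log2 fold change was -0.27 ± 0.12 (SE), with an unadjusted p of 0.0468 and an adjusted p of 1.00 in edgeR. An exact two-sided permutation test with its 35 possible splits gave p = 0.0857, where 0.0286 is the smallest it can give. Over all 9 mice the log2 fold change was -0.19 (edgeR, unadjusted p = 0.0915, exact permutation p = 0.103). Without KO5 it was -0.17 in 7 mice (unadjusted p = 0.197 in edgeR). The unadjusted p was also above 0.05 without KO1, WT2, WT3 or WT4, where edgeR gave 0.0557 to 0.104. It was 0.0300 without KO3 and 0.0417 without WT1. KO5 also stood apart in adipocyte markers, which summed to 1232 CPM there and to at most 482 CPM in every other mouse. It was the highest mouse in Schwann cell markers, which summed to 466.0 CPM there and to at most 278.8 CPM elsewhere. In 7 mice 4 of 6 adipocyte and 3 of 6 Schwann markers tested had an unadjusted p below 0.05, all higher in *Shank3Δ11(-/-)*, and their part in the Foxo4 value was not tested. With the level of Y-linked genes as a covariate the log2 fold change was -0.29 in 7 mice and -0.19 in 9 mice (edgeR, unadjusted p = 0.0358 and 0.103). With the replicate number as a block it was -0.12 in both (edgeR, unadjusted p = 0.313 and 0.220).

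Gadd45a, a stress-induced gene downstream of Atf4 that promotes fibre atrophy, was measured at 14.2, 14.0, 21.1, 23.5 and 28.3 CPM in KO1 to KO5 and at 14.5, 16.3, 19.98 and 20.5 CPM in WT1 to WT4. The *Shank3Δ11(-/-)* mice lay at both ends, with KO3, KO4 and KO5 above and KO1 and KO2 below every *Shank3(+/+)* mouse. The SD of log2 CPM was 0.45 over the 5 *Shank3Δ11(-/-)* mice and 0.24 over the 4 *Shank3(+/+)* mice. The log2 fold change was 0.24 ± 0.22 (SE, unadjusted p = 0.291 in edgeR), with an interval of 0.847 to 1.65 times the *Shank3(+/+)* level. Without KO1 it was 0.46 (unadjusted p = 0.0325, adjusted p = 1.00 in edgeR), without KO5 it was -0.03, and with the level of Y-linked genes as a covariate it was 0.09.

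Klf15 was the most variable member. It was measured at 7.11, 4.49, 18.7, 14.2 and 4.86 CPM in KO1 to KO5 and at 4.07, 4.29, 20.2 and 13.4 CPM in WT1 to WT4. The values fell into separate sets within each genotype: KO3, KO4, WT3 and WT4 lay between 13.4 and 20.2 CPM, and the other 5 mice between 4.07 and 7.11 CPM. The highest mouse was 4.96 times the lowest, and the SD of log2 CPM lay at the 98.8th percentile of all genes tested. The counts behind these values ran from 128 in KO5 to 593 in KO3. Between genotypes the log2 fold change was -0.04 ± 0.72 (SE), and 0.10 with limma-voom, so its sign is not set, and the interval of 0.299 to 3.16 times the *Shank3(+/+)* level was the widest of the members. The higher mice carry the numbers 3 and 4 in both genotypes, but the labels do not say that a number marks a litter, day or batch. Of these 4 mice KO3, WT3 and WT4 had a near-zero Y-linked level and KO4 a high one, and KO5, of near-zero level, was among the low Klf15 mice.

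**Figure D2:**
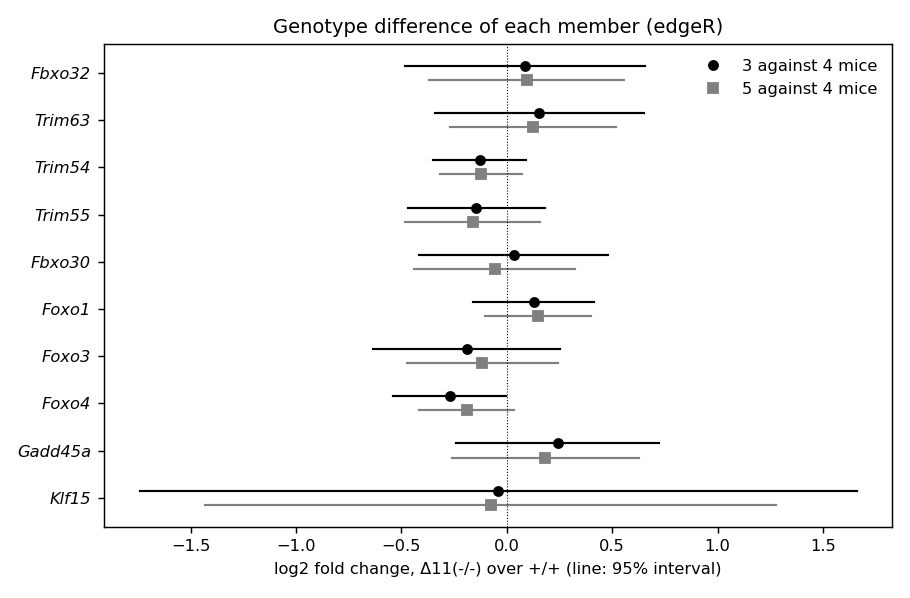
Log2 fold change of each member, *Shank3Δ11(-/-)* over *Shank3(+/+)* (x axis), by edgeR with its 95% interval (lines), for 3 against 4 mice (black circles) and 5 against 4 mice (grey squares). In 7 mice the Foxo4 interval ends just below 0, all other intervals span 0, and Klf15 has the widest.

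Covariation was examined over the 9 mice on log2 CPM. Because Klf15 splits the mice into sets of 4 and 5, each too small for a correlation of its own, the r of its 9 pairs over all mice is not reported as a result. These pairs were kept in the family of 45 over which p-values were adjusted. Of the 36 pairs among the other 9 members, 5 had an exact permutation p below 0.05, 3 of them positive and 2 negative. None passed after adjustment over the 45 pairs, where the smallest adjusted p was 0.101 for Pearson's r and 0.138 for Spearman's rho.

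Among these 36 pairs the highest r was that of the ligases MAFbx and MuRF1. Fbxo32 and Trim63 had r = 0.84 and rho = 0.88 (exact permutation p = 0.00414 and 0.00308, adjusted p = 0.101 and 0.138, n = 9). KO1, WT3 and WT4 were high in both genes and WT1, WT2 and KO5 were low. Without KO1 and WT2, the mice farthest from the median of Fbxo32, r was 0.69. The value was 0.84 after centring within genotype, and 0.85 after centring within the mice of high and of near-zero Y-linked level. The fold changes of both genes between genotypes, 0.09 and 0.15 on the log2 scale, were smaller than their standard errors.

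**Figure D3:**
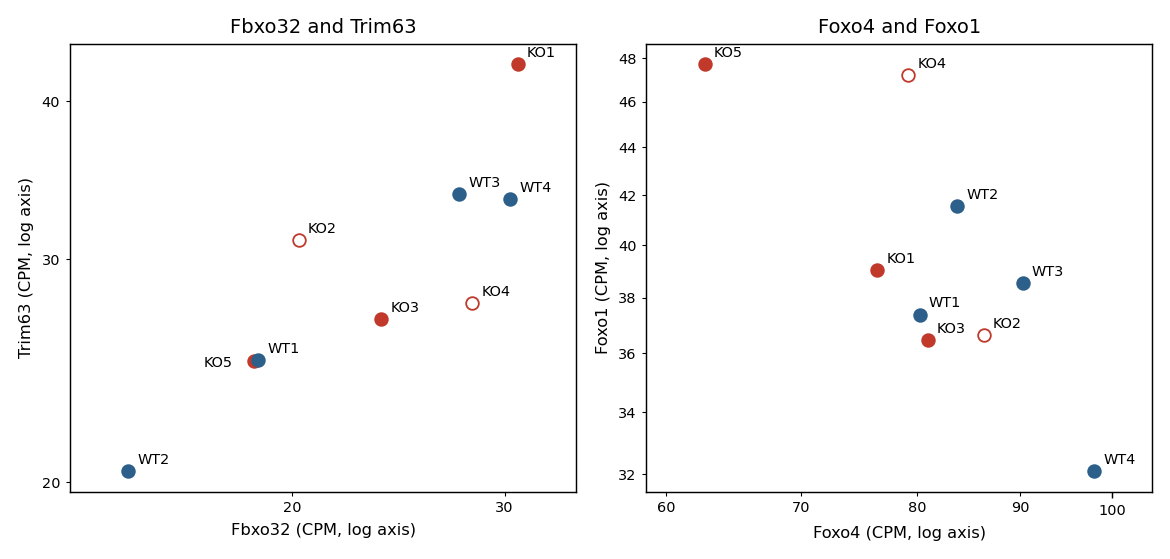
CPM of Trim63 against Fbxo32 (left) and of Foxo1 against Foxo4 (right), log axes, 1 point per mouse (red, *Shank3Δ11(-/-)*, open for KO2 and KO4; blue, *Shank3(+/+)*). The left pair rises together with r = 0.84, and the right pair runs in opposite directions with r = -0.77.

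The FoxO genes did not vary as a unit. Foxo3 and Foxo4 had r = 0.74 and rho = 0.67 (exact permutation p = 0.0214 and 0.0589, adjusted p = 0.221 and 0.374), and r fell to 0.33 without KO5 and WT3. It was 0.45 without KO5 alone and 0.71 without WT3 alone, so that the relation rests mainly on KO5. Foxo1 and Foxo4 had r = -0.77 and rho = -0.70 (exact permutation p = 0.0163 and 0.0433, adjusted p = 0.221 and 0.374), and r was -0.63 without KO4 and KO5. KO5 was the highest mouse for Foxo1 and the lowest for Foxo4, and WT4 the reverse. Within the mice of high Y-linked level (n = 5) r was -0.31 for Foxo1 and Foxo4 and -0.33 for Foxo3 and Foxo4, with no test at this number.

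Foxo3 and its target gene Fbxo32 had r = 0.70 and rho = 0.65 (exact permutation p = 0.0344 and 0.0666, adjusted p = 0.221 and 0.374), and r was 0.82 without KO1 and WT2. Foxo3 was highest in KO3, KO4, WT3 and WT4, the same mice as Klf15. The part of that split in the Foxo3 pairs was not tested. Fbxo30 and Gadd45a, both induced on denervation, had r = -0.72 and rho = -0.67 (exact permutation p = 0.0279 and 0.0589, adjusted p = 0.221 and 0.374), and r was -0.69 without KO1 and WT2. With the replicate number as a block the r of this pair was 0.27 over 8 mice, so its sign differed under that choice. That r rests on only 1 difference between the genotypes per number. Trim54 and Foxo1 had r = -0.57 and rho = -0.32 (exact permutation p = 0.111 and 0.410, adjusted p = 0.617 and 0.673), with r = 0.07 without KO4 and WT4.

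**Figure D4:**
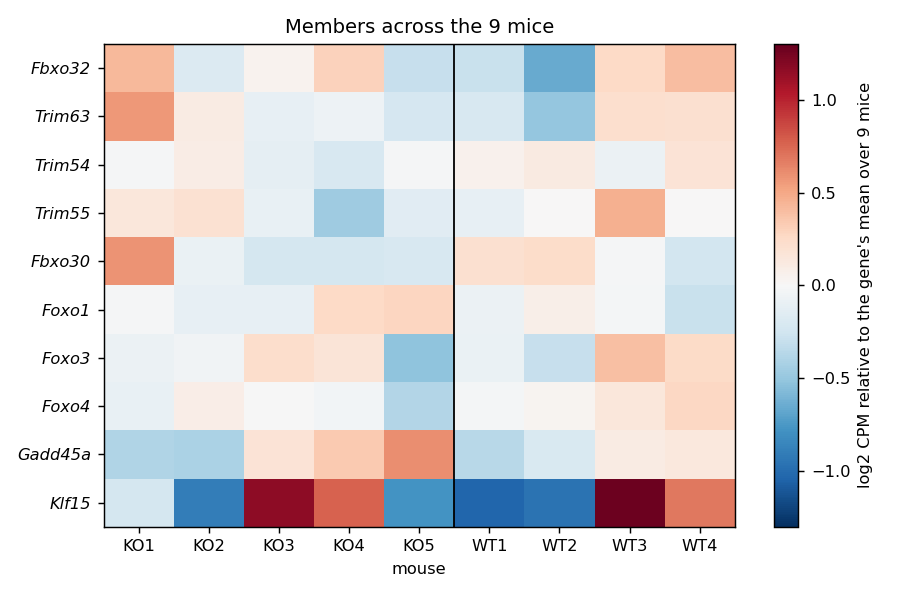
Log2 CPM of each member (rows) in each mouse (columns) relative to the mean of that gene over 9 mice (colour); the line divides *Shank3Δ11(-/-)* from *Shank3(+/+)*. Klf15 has the strongest colours, high in KO3, KO4, WT3 and WT4, and Trim54 the faintest.

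Across 13558 genes with a mean of at least 1 CPM, the 3 most like each member over the 9 mice were listed by Pearson's r, as a description of 9 libraries with no test. Fbxo32 was most like Xirp2 (r = 0.96), which encodes an actin-binding protein of the intercalated disc and myotendinous junction, then Irs2 (0.91), the insulin receptor substrate and a FoxO target, and Tlr5 (0.91). Xirp2 was measured at 103.2, 67.0, 81.2, 99.0 and 63.5 CPM in KO1 to KO5 and at 73.3, 59.4, 91.7 and 94.2 CPM in WT1 to WT4. As for Fbxo32, KO1 was its highest mouse and WT2 its lowest. Trim63 was most like Aff1 (0.94), the transcriptional repressor gene Bcl6 (0.93), itself a FoxO target, and Zfp174 (0.93). Of a list of 37 other FoxO target genes, 1 had r above 0.8 with Fbxo32 and 2 with Trim63, against 0.603% and 0.294% of all genes. The median r of the list was 0.39 and 0.19, and its lowest r was -0.57 (Atg4b) and -0.61 (Tfeb).

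For the other ligases the nearest genes differed. Trim54 was most like Stac3 (0.96), which encodes a protein of excitation-contraction coupling, Tceal5 (0.95) and Pex14 (0.95). Trim55 was most like Slc9a7 (0.95), Ccdc141 (0.94) and Fig4 (0.94), and Fbxo30 most like Ttll7 (0.97), Zfp959 (0.95) and Mbtd1 (0.95). Foxo1 was most like Rgs5 (0.95), a gene of pericytes and smooth muscle, Med7 (0.94) and Ncor1 (0.94). Foxo3 was most like Ptgfrn (0.97), Acss2 (0.97) and Top3a (0.96), and Foxo4 most like Ism1 (0.95), Sv2b (0.95) and Dlk2 (0.94). Gadd45a was most like Hsd17b12 (0.98), the chaperone gene Calr (0.98) and Trip13 (0.97). No gene was named for more than 1 member.

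Klf15 was most like Glb1 (0.98), the stearoyl-CoA desaturase gene Scd1 (0.98) and Mchr1 (0.98), values that its split into separate sets of mice carries. Scd1 was measured at 17.9, 16.5, 40.5, 35.2 and 15.8 CPM in KO1 to KO5 and at 17.1, 14.8, 40.2 and 34.7 CPM in WT1 to WT4. Its 4 highest mice were the same as those of Klf15. In a list of 18 glucocorticoid response genes and Klf15 targets, 10 had r above 0.8 with Klf15 (Pik3r1, Aldh4a1, Cebpd, Got1, Tsc22d3, Sgk1, Dusp1, Fkbp5, Per1 and Zbtb16), against 4.03% of 21734 genes. In the same list Nr3c1, which encodes the glucocorticoid receptor, ran the other way with r = -0.85. The median r of the list was 0.83, beside 0.02 over all genes. The list was chosen with earlier results of these data known. These r rest on the same split of the mice, and no test was run on them. For Foxo3, whose 4 highest mice were also those of Klf15, the count was 4 of the 18 (Aldh4a1, Zbtb16, Fkbp5 and Pik3r1), against 2.48% of genes. For Fbxo32 it was 0 of 18, against 0.603% of genes, with a median r of 0.65 beside 0.01 over all genes.

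The values of glucocorticoid response genes show this pattern and its exceptions. Fkbp5, which encodes a co-chaperone of the glucocorticoid receptor, was measured at 34.2, 23.4, 63.6, 48.8 and 18.2 CPM in KO1 to KO5 and at 29.4, 35.8, 57.3 and 70.5 CPM in WT1 to WT4. Its 4 highest mice were those of Klf15. Per1, a clock gene with a glucocorticoid element, was measured at 100.3, 66.1, 156.4, 166.6 and 139.3 CPM in KO1 to KO5 and at 69.4, 57.0, 157.2 and 154.4 CPM in WT1 to WT4. Here KO5 lay near the high mice, although it was among the low ones for Klf15 and the lowest for Fkbp5. Neither gene passed the test between genotypes, where the log2 fold change in 7 mice was -0.33 for Fkbp5 and 0.26 for Per1 (edgeR, unadjusted p = 0.502 and 0.528).

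**Figure D5:**
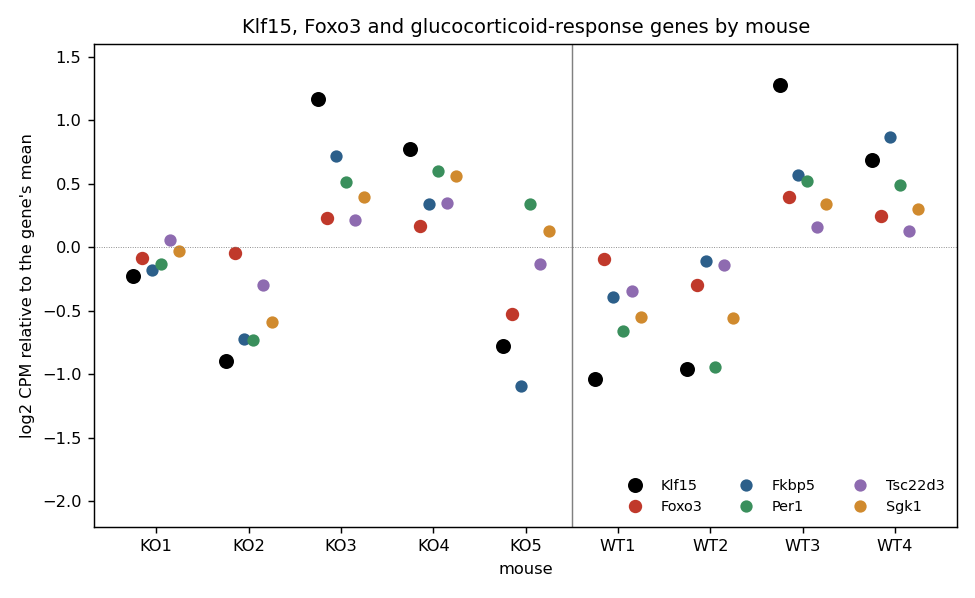
Log2 CPM of Klf15, Foxo3 and 4 glucocorticoid response genes (colours) relative to the mean of each gene (y axis) in each mouse (x axis); the line divides the genotypes. All 6 genes lie above their mean in KO3, KO4, WT3 and WT4; in KO5, Klf15, Foxo3, Fkbp5 and Tsc22d3 lie below it and Per1 and Sgk1 above it.

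The other genes of the pathway were read from lists that together held 204 genes tested. By edgeR 4 of them had an unadjusted p below 0.05 in 7 mice, where 2.08% of 21809 genes did. In 9 mice 1 did, where 2.03% of 21735 genes did, and 0 were called. Their median log2 fold change was 0.01 in 7 mice, beside -0.008 over all genes. The SCF core and proteasome list had 43 genes tested, 0 of them with p below 0.05. In 7 mice 31 had a higher and 12 a lower fitted level in *Shank3Δ11(-/-)*, with a median of 0.04, and over all 9 the numbers were 23 and 20 and the median 0.01. Its smallest p belonged to Skp1a (log2 fold change 0.15, unadjusted p = 0.183 and adjusted p = 1.00 in edgeR), the adaptor that ties F-box proteins to the SCF ligase. Of 31 other muscle ubiquitin ligases 0 passed, with Trim7 lowest in p (log2 fold change 0.51, unadjusted p = 0.0710 and adjusted p = 1.00 in edgeR) and its highest level, 34.4 CPM, in KO5. Of 37 other FoxO target genes 0 passed. There the smallest p was that of Pdk4, the kinase that shuts off pyruvate dehydrogenase in fasting (log2 fold change 0.53, unadjusted p = 0.108 and adjusted p = 1.00 in edgeR), which reached 249.5 CPM in KO1 and between 72.0 and 132.7 CPM in the other 8 mice.

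Of 41 upstream kinases and co-regulators of FoxO 0 passed, with Rela, a subunit of NF-κB, lowest in p (log2 fold change 0.21, unadjusted p = 0.0731 and adjusted p = 1.00 in edgeR). The denervation response list of 19 genes had 15 with a lower fitted level in *Shank3Δ11(-/-)* in 7 mice and 14 in 9 mice, with medians of -0.07 and -0.05 and 0 with p below 0.05. Its smallest p was that of Cdkn1a, the cell cycle inhibitor p21 (log2 fold change -0.22, unadjusted p = 0.127 and adjusted p = 1.00 in edgeR).

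Of the 18 glucocorticoid response genes and Klf15 targets, Klf9, a hormone-induced relative of Klf15, had p below 0.05 in 7 mice. It was measured at 58.6, 51.4 and 71.3 CPM in KO1, KO3 and KO5 and at 35.7, 46.7, 52.0 and 46.7 CPM in WT1 to WT4. KO3 lay just under WT3, so the genotypes overlapped, and of the mice set aside by the study KO2 was the lowest of all at 23.9 CPM and KO4 the highest at 86.2 CPM. The log2 fold change was 0.41 ± 0.15 (SE, unadjusted p = 0.0224 and adjusted p = 1.00 in edgeR), and in 9 mice the unadjusted p was 0.237.

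Among 21 ligase substrates and sarcomere partners 3 had p below 0.05 in 7 mice and 1 in 9 mice, where 2.08% and 2.03% of all genes did. Myod1, the myogenic factor that MAFbx marks for breakdown, was measured at 52.2, 48.7 and 38.6 CPM in KO1, KO3 and KO5 and at 57.2, 68.2, 54.5 and 65.4 CPM in WT1 to WT4. In these 7 mice the genotypes did not overlap, as for 2.84% of all genes. Of the mice set aside, KO2 had 83.6 CPM, the highest of the 9, and KO4 had 35.5 CPM, the lowest. The log2 fold change was -0.41 ± 0.13 (SE, unadjusted p = 0.0109 and adjusted p = 1.00 in edgeR). The exact permutation p was 0.0286, the smallest that 3 against 4 mice can give, and over 9 mice it was 0.278. Actn3, the α-actinin of fast fibres, had a log2 fold change of 0.62 ± 0.26 (SE, unadjusted p = 0.0413 in edgeR), and Tnnt1, the slow fibre troponin T, one of -0.34 ± 0.15 (SE, unadjusted p = 0.0457 in edgeR). In 9 mice the values were 0.50 for Actn3 and -0.24 for Tnnt1 (edgeR, unadjusted p = 0.0455 and 0.124). Both genes had an adjusted p of 1.00, and KO5 was the highest mouse for Actn3 (715.6 CPM) and the lowest for Tnnt1 (500.4 CPM). KO5 was also the highest mouse in adipocyte and Schwann cell markers, whose part was not tested. Without KO5, 1 of the 204 genes had an unadjusted p below 0.05, and without KO3 14 did.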

How the data were processed

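The deposited table holds counts, the numbers of reads per Ensembl gene for 9 mice, not normalized. Per the labels and the study's methods, the authors aligned reads to mm10 with HISAT2, kept concordant pairs and counted with featureCounts. The sources used here give neither strandedness nor annotation release nor the handling of multi-mapped reads. Identifiers were matched to symbols and positions with GENCODE M21.

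Members and lists were chosen with earlier results of these data known. CPM used TMM factors over 9 mice, with a prior count of 2 for log2 values in correlations. Genotypes were tested with edgeR 4.0.16 (quasi-likelihood, robust, R 4.3.3) on genes passing a filter of at least 10 counts and 15 in total, without covariates, and p-values were adjusted by Benjamini-Hochberg over all genes. Alternatives used DESeq2 1.42.0, limma 3.58.1 (voom), other factors and filters, thinned counts, a Y-linked covariate, a replicate block and leaving out each mouse. The scripts were tested on simulated data. Permutation tests were exact and two-sided (scipy 1.17.1). The named genes were all members, in each list those with p below 0.05 in 7 mice or else that of smallest p, the 3 genes most like each member (pseudogenes and unnamed models left out), and the 5 highest and 3 lowest of 45 pairs by r (of the highest, Klf15 with Foxo3 and with Fbxo32 are not reported as results). Values of Xirp2, Scd1, Fkbp5 and Per1, and the 4 response genes plotted, were chosen after their values were seen. Libraries held 26444372 to 40471957 counts, and each mouse gave 1 library, so the p-values measure the spread between mice.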

Additional observations from a re-analysis of the deposited data

Results flagged for a closer look

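In 40 groups of 4 or 5 mice (the 10 members and 10 marker lists in each genotype), 5 held a mouse whose gap to its nearest neighbour, as a share of the group's range, passed Dixon's 95% limit (0.829 for 4 mice, 0.71 for 5). Chance flags about 1 in 20 groups. Trim55 was at 100.6 CPM in WT3, with the next *Shank3(+/+)* mouse at 73.2 CPM (gap 0.841). Fbxo30 was at 28.6 CPM in KO1, with the next *Shank3Δ11(-/-)* mouse at 18.0 CPM (gap 0.863). Summed adipocyte markers were at 1232 CPM in KO5, next 482 CPM (gap 0.761). Summed leukocyte and macrophage markers were at 188.7 CPM in WT1, next 151.4 CPM (gap 0.886), although 3 *Shank3Δ11(-/-)* mice reached 190.5 to 193.9 CPM. Summed erythroid markers were at 5785 CPM in KO1, next 2195 CPM (gap 0.788).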

How the results depend on the processing

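No member was called under any alternative run. Leaving out mice apart, 137 of 150 member values kept their direction and 13 reversed. When a mouse was left out, 11 of 70 values reversed against the fit of the 7 mice, and 11 of 90 against the fit of all 9. The fits of 9 mice with DESeq2, limma-voom or a Y-linked covariate were added after seeing the data. The cause of each change below was not tested.

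Genes called (0) numbered 1 without a filter on low counts, 6 with DESeq2 and 7 with DESeq2 in 9 mice, and 0 to 15 leaving out a mouse (15 without KO1). Genes with p below 0.05 (453) numbered 972 without the filter and 224 (without KO5) to 968 (without KO1). Pathway genes with p below 0.05 (4) numbered 1 in 9 mice with edgeR, DESeq2, limma-voom or the Y-linked covariate, and 0 to 14 leaving out a mouse.

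Fbxo30 reversed to -0.0581 in 9 mice with edgeR, -0.0579 with DESeq2, -0.0775 with the covariate and -0.0848 with limma-voom in 9 mice, and -0.0045 with limma-voom in 7 mice. Klf15 reversed to 0.10 with limma-voom, 0.24 with the covariate in 9 mice and 0.0750 with limma-voom in 9 mice. Over both sets of mice, leaving out a mouse gave -0.12 to 0.26 for Fbxo32, -0.13 to 0.30 for Trim63, -0.24 to 0.0044 for Trim55, -0.28 to 0.17 for Fbxo30, -0.38 to 0.0014 for Foxo3, -0.0251 to 0.46 for Gadd45a and -0.81 to 0.50 for Klf15. It did not reverse Trim54 (-0.17 to -0.08), Foxo1 (0.00 to 0.21) or Foxo4 (-0.35 to -0.12). The r of Fbxo32 and Trim63 was 0.94 in the 7 mice, and that of Trim54 and Foxo1 -0.31. Leaving out a mouse gave 0.74 to 0.91 for the first pair, 0.45 to 0.84 for Foxo3 and Foxo4, 0.65 to 0.83 for Fbxo32 and Foxo3, -0.71 to -0.34 for Trim54 and Foxo1, -0.86 to -0.69 for Fbxo30 and Gadd45a, and -0.86 to -0.63 for Foxo1 and Foxo4.

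By the labels, same-numbered mice share only a number. Their deviations from the group means correlated at 0.37, 0.05, 0.36 and 0.10 for numbers 1 to 4. KO1, KO3, KO4, WT1 and WT3 correlated best with the mouse of their own number in the other genotype, and KO2, WT2 and WT4 did not. What a number stands for was not tested. With the replicate block, 9 genes were called in 7 mice and 2 in 9 mice, 844 had p below 0.05 in 7 mice, and 1 pathway gene did in 9 mice. The block gave -0.0367 for Fbxo30 in 9 mice, -0.0131 for Foxo1 in 7 mice, 0.0030 for Foxo3 in 9 mice, 0.28 and 0.19 for Klf15 in 7 and 9 mice, -0.12 for Foxo4 in both (unadjusted p = 0.313 in 7 mice by edgeR), 0.24 and 0.21 for Fbxo32, and 0.02 and 0.01 for Gadd45a. For correlations, KO1 to KO4 and WT1 to WT4 were centred within each same-numbered pair. The r then rests on 1 difference per number, fewer than the 8 mice. It was 0.98 for Fbxo32 and Trim63, 0.61 for Fbxo32 and Foxo3, -0.91 for Trim54 and Foxo1, and 0.27 for Fbxo30 and Gadd45a, with no test.

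With 3 against 4 mice, the upper ends of the 95% intervals ran from 0.997 (Foxo4) to 3.16 (Klf15) times the *Shank3(+/+)* level.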
